A study of Rattus norvegicus with 20 samples.

Results

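Livers of rats given rosiglitazone were compared with livers of lean control rats, 5 arrays against 5 of the 20 in the series, chosen by the group named in the sample titles. The comparison asked which genes still differed from lean with the drug, and which lay beyond the lean level. All animals were male and labelled as of the Zucker strain. One protocol text, shared by all samples, calls the rats Zucker diabetic fatty (ZDF), while the methods set lean control rats apart from ZDF rats, so the genotype of each group is not settled here. The rats were kept 1 to a cage on a reversed light cycle of 12 h and 12 h with food always present. The rosiglitazone rats have neither a dose, a treatment time, a diet nor a body type in the labels. The obese rats, used here as a further point of comparison, had a stock diet for 6 weeks, and the lean controls had a standard Purina chow. Rats given resveratrol formed the other group of 5 and entered only the shared fit. Drug, diet and genotype therefore cannot be told apart in a difference between rosiglitazone and lean livers. Each array held 1 rat, and values are on the log2 scale of robust multiarray averaging (RMA), so a difference of 1 is a 2-fold change. The labelled tissue was checked on its markers. All 8 hepatocyte markers measured were tested, their mean level was 10.48 to 10.72 in rosiglitazone livers and 10.55 to 10.67 in lean livers, and none was called.

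As background, ZDF rats that lack a working leptin receptor overeat, become obese and develop insulin resistance and then diabetes, while lean littermates do not. Rosiglitazone is a thiazolidinedione that activates the nuclear receptor PPARgamma, whose main site is the adipocyte. In liver, PPARgamma is known for switching on genes of fatty acid uptake and lipid storage. Male rat liver also carries a set of genes kept high by the pulsed male pattern of growth hormone, and a sterol pathway governed by the SREBP factors.

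The lean arrays did not lie together. On the first principal component, with 18.4% of the variance of tested genes, lean control arrays 1, 4 and 5 lay between −27.9 and −22.5. Lean control array 2 lay at −10.2 and array 3 at 0.81, and the rosiglitazone arrays lay between −3.47 and 11.6, so that only lean control array 3 lay inside their range. On the second component lean control array 2 stood apart, at 12.8 beside −3.50 to 2.76 for the other lean arrays. A score of clock genes, the mean standardised level of genes that peak together minus that of genes in the opposite phase, ran from −2.90 to 1.66 in rosiglitazone livers and from −0.69 to 2.46 in lean livers. Dbp, Per2 and Per3 are among its genes of the first kind, Npas2 and Clock are of the second, and Bmal1 did not enter it. No label or method used here states when livers were taken. Counts are therefore given with and without lean control array 3, and its part in each result was not otherwise tested.

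Of 14557 genes with a probe set of their own, 9481 passed the filter on low values and were tested, and 229 of them (2.42%) differed between rosiglitazone and lean livers at an adjusted p under 0.05 (limma, Benjamini and Hochberg adjustment over all genes tested). Of these, 96 (1.01% of genes tested) were higher and 133 (1.40%) were lower with rosiglitazone. In 155 of the 229 (1.63% of genes tested) the 5 rosiglitazone arrays did not overlap the 5 lean arrays. Differences among the higher genes ran from 0.36 to 1.98 with a median of 0.73, and among the lower genes from −4.57 to −0.36 with a median of −0.81. At least a 2-fold difference was reached by 28 higher and 46 lower genes. Without lean control array 3 the count was 416 in place of 229, of which 221 were among the original calls, and it was 151 without rosiglitazone array 1 and 150 without lean control array 4. For scale, 172 genes (1.81%) were called between obese and lean livers and 142 (1.5%) between rosiglitazone and obese livers, and these comparisons share arrays with the one described.

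The obese mean lay on the same side of lean as the rosiglitazone mean for 209 of the 229 genes, and on the other side for 20. A group of 54 genes (14 higher, 40 lower) were also called in obese livers against lean in the same direction, and are described as still different. A further 22 (9 higher, 13 lower) lay beyond obese on the same side, called against both obese and lean, and 1 of them, Obp3, was also among the 54. The 20 genes with the obese mean on the other side (15 higher, 5 lower) were all called against obese too, and are described as beyond lean. Their side rests on the sign of obese minus lean alone, and in 1 of the 20 that difference was itself called. With obese on the far side, rosiglitazone minus obese is the larger difference, at the same standard error. The call against obese therefore adds little to the call against lean. In 187 of the 229 the difference between rosiglitazone and obese livers was not called, and in 0 did it run against the difference from lean and pass the threshold. These classes share arrays, so their counts are descriptions.

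**Figure D1:**
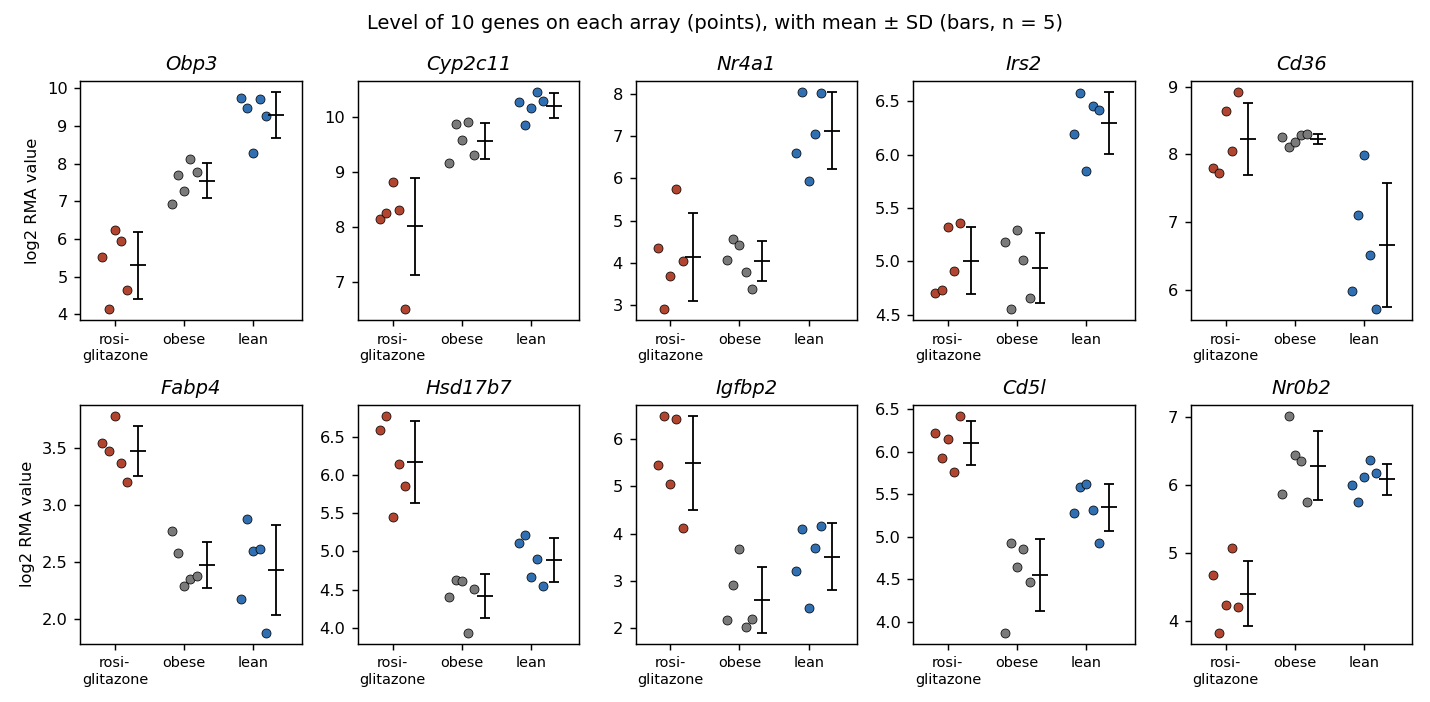
Levels of 10 genes (log2 RMA value, vertical axes, each panel with its own range that does not start at 0) in rosiglitazone, obese and lean livers, 1 point per array, with the mean and SD of 5 arrays as bars. Obp3, Cyp2c11, Nr4a1 and Irs2 were lower and Cd36 higher in rosiglitazone than in lean livers, Hsd17b7, Igfbp2 and Cd5l had means above both other groups, and Nr0b2 had a mean below both.

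Genes still different from lean included signalling genes that respond to hormones. Nr4a1, an immediate early nuclear receptor induced by glucagon and other stimuli, was 4.34, 2.89, 3.68, 5.75 and 4.04 in rosiglitazone livers, against 6.60, 8.06, 5.94, 7.06 and 8.02 in lean livers. The groups did not overlap, the highest rosiglitazone array lying just below the lowest lean array, which was array 3, and the difference was −2.99 ± 0.46, adjusted p = 0.000872. The difference between obese and lean livers was −3.10 (adjusted p = 0.00499). Irs2, the insulin receptor substrate that falls when insulin is high, was 4.71, 4.74, 5.32, 4.91 and 5.36 in rosiglitazone livers, against 6.19, 6.58, 5.85, 6.45 and 6.42 in lean livers. No rosiglitazone array reached the lowest lean array, and the difference was −1.29 ± 0.26, adjusted p = 0.00843, beside −1.36 (adjusted p = 0.0155) in obese livers. Sik1, a kinase induced by cAMP, was lower by a difference of −1.28 (adjusted p = 0.0105) with rosiglitazone and of −1.47 (adjusted p = 0.0125) in obese livers. Rosiglitazone minus obese differences of these 3 genes were 0.10, 0.066 and 0.18, with adjusted p of 0.969, 0.962 and 0.869.

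The list of cytokines, chemokines and NF-kB genes had 1 lower and 0 higher members of 32 tested, beside 1.40% and 1.01% of all genes tested, with a median of −0.098. Single genes of other roles were in the still different class as well. Socs2, a brake on growth hormone signals that growth hormone itself induces, was 2.65, 2.89, 2.10, 3.66 and 2.73 in rosiglitazone livers, against 6.30, 5.30, 2.79, 5.53 and 7.31 in lean livers. Lean control array 3 lay inside the range of the rosiglitazone arrays and the other 4 lean arrays lay above all of them, with a difference of −2.64 ± 0.50, adjusted p = 0.00514. Onecut1, which encodes the liver factor HNF6, was 4.14, 3.92, 4.56, 4.09 and 4.69 in rosiglitazone livers, against 7.06, 6.40, 4.88, 6.08 and 7.45 in lean livers. All rosiglitazone arrays lay below all lean arrays, with a difference of −2.10 ± 0.41, adjusted p = 0.00629. Il1a, the gene of interleukin 1 alpha, was 4.83, 4.35, 4.32, 5.46 and 4.92 in rosiglitazone livers, against 6.65, 6.70, 6.34, 6.44 and 6.58 in lean livers. The lean arrays were within 0.37 of each other and none was reached by a rosiglitazone array, with a difference of −1.77 ± 0.24, adjusted p = 0.000479. Rel, an NF-kB subunit, was lower by a difference of −1.06 ± 0.15, adjusted p = 0.000479, and Phlda1, an apoptosis-linked gene induced by growth signals, by a difference of −1.28 ± 0.19, adjusted p = 0.000809. In neither did the groups overlap.

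Among the other still different genes named by smallest p, Cpq, a carboxypeptidase, was lower with a difference of −0.83 ± 0.11, adjusted p = 0.000320. Spring1, a regulator of SREBP processing, was lower with a difference of −0.80 ± 0.13, adjusted p = 0.00136, Slc17a2, a phosphate transporter family member, with −0.76 ± 0.12, adjusted p = 0.00104, and Phtf1 with −0.82 ± 0.13, adjusted p = 0.00104. Tex36 was higher with a difference of 1.23 ± 0.20, adjusted p = 0.00125. Its lean values ran from 2.09 to 3.28, reaching down to the array medians of 2.36 to 2.53. The glucocorticoid receptor Nr3c1 was lower with a difference of −0.47 ± 0.10, adjusted p = 0.0105, and the heme-sensing repressor Bach1 with −0.65 ± 0.13, adjusted p = 0.00737. Over the 54 genes the rosiglitazone minus obese difference ran from −2.25 to 0.74 with a median of 0.0059. Without lean control array 3 the class held 203 genes, and all 54 were among them. It held 25, 35, 23 and 32 genes without lean control array 1, 2, 4 or 5, and 30 without obese array 1.

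Obp3, Cyp2c11 and Igfals, 3 genes of the list of growth hormone, IGF and male-pattern genes, lay further from lean with rosiglitazone than in obese livers. Obp3, a lipocalin of the alpha-2u globulin group that male rat liver secretes, was 5.52, 4.14, 6.25, 5.95 and 4.65 in rosiglitazone livers, against 9.76, 9.49, 8.28, 9.72 and 9.26 in lean livers. The highest rosiglitazone array was 2.03 under the lowest lean array, and the difference was −4.00 ± 0.35, adjusted p = 1.37e-06. Obese livers, at 7.56 ± 0.46 (SD, n = 5), lay between the groups, and rosiglitazone minus obese was −2.25 (adjusted p = 0.00131). Members of this group have near-identical copies, so probe sets can share signal, and an unnamed locus, LOC100360095, singled out after its values were seen, had the lowest difference of all tested genes at −4.57 (adjusted p = 0.000128). Cyp2c11, the male-specific steroid hydroxylase, was 8.14, 8.26, 8.83, 8.32 and 6.50 in rosiglitazone livers, against 10.28, 9.86, 10.17, 10.46 and 10.30 in lean livers. Every rosiglitazone array lay at least 1.04 below every lean array, the difference was −2.21 ± 0.32, adjusted p = 0.000695, and rosiglitazone minus obese was −1.56 (adjusted p = 0.0151). Igfals, which holds circulating IGF1 in a stable complex, was 4.67, 5.04, 4.10, 4.38 and 4.40 in rosiglitazone livers, against 5.72, 5.83, 5.59, 6.24 and 6.18 in lean livers. The groups did not overlap, with a difference of −1.39 ± 0.18, adjusted p = 0.000320 against lean and −0.83 (adjusted p = 0.0228) against obese.

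Of 20 tested genes on the list of growth hormone, IGF and male-pattern genes, 6 were lower (Obp3, Socs2, Cyp2c11, Onecut1, Cyp3a18 and Igfals) and 1 was higher, beside 1.40% and 1.01% of all genes tested. The higher member was Cyp2a1, a female-predominant hydroxylase, with a difference of 0.42 ± 0.11, adjusted p = 0.04999, close to the threshold. Cyp3a18, a male-predominant hydroxylase, had a difference of −1.65 ± 0.31, adjusted p = 0.00411. The median over the list was −0.42 for rosiglitazone minus lean and −0.31 for obese minus lean, beside 0.0055 and 0.0032 over all genes tested.

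Other genes beyond obese on the same side of lean encode liver enzymes and carriers. Ces1f, a carboxylesterase, was 5.05, 5.10, 5.26, 5.63 and 4.72 in rosiglitazone livers, against 6.56, 7.27, 6.92, 7.29 and 7.37 in lean livers. The gap between the groups was 0.94, and the difference was −1.93 ± 0.18, adjusted p = 1.37e-06. Obese livers were at 6.43 ± 0.096 (SD, n = 5). Serpina6, the corticosteroid-binding globulin, was 7.34, 7.74, 6.63, 7.09 and 6.08 in rosiglitazone livers, against 8.23, 8.22, 8.46, 8.69 and 8.61 in lean livers. No array overlapped, with a difference of −1.47 ± 0.22, adjusted p = 0.000809. The organic anion transporter Slc22a8 had a difference of −1.15 ± 0.19, adjusted p = 0.00151, the hepatic lipase Lipc of −0.54 ± 0.11, adjusted p = 0.00843, the esterase Ces2h of −1.46 ± 0.30, adjusted p = 0.00890 and the acetyltransferase Nat8f2 of −1.98 ± 0.38, adjusted p = 0.00514. Higher in this class were Nqo1, the quinone reductase of the NRF2 response (1.29 ± 0.25, adjusted p = 0.00523), the acute-phase transcription factor Stat3 (0.98 ± 0.21, adjusted p = 0.0102), the glycosidase Myorg (1.14 ± 0.23, adjusted p = 0.00737) and the acid ceramidase Asah1 (0.55 ± 0.13, adjusted p = 0.0293).

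Of the 15 higher genes in the class beyond lean, 4 were enzymes of cholesterol synthesis. Hsd17b7, a reductase of the late cholesterol pathway, was 6.60, 6.79, 5.46, 6.16 and 5.86 in rosiglitazone livers, against 5.11, 5.22, 4.67, 4.90 and 4.55 in lean livers. All rosiglitazone arrays were above all lean arrays, and the lean arrays averaged 4.89 ± 0.28 beside 4.42 ± 0.29 in obese livers (SD, n = 5 each), so the difference of 1.29 ± 0.21, adjusted p = 0.00162 pointed away from obese. Ebp, the sterol isomerase, was 8.22, 8.66, 7.86, 8.26 and 8.34 in rosiglitazone livers, against 7.28, 7.76, 7.73, 7.84 and 7.53 in lean livers. Rosiglitazone array 3 came nearest to the lean arrays without overlap, with a difference of 0.64 ± 0.12, adjusted p = 0.00614. Sc5d, the sterol desaturase, was 8.49, 8.71, 8.59, 8.70 and 8.78 in rosiglitazone livers, against 8.32, 8.25, 8.04, 8.26 and 8.27 in lean livers. Its lowest rosiglitazone array lay above the highest lean array, and the difference was 0.42 ± 0.097, adjusted p = 0.0185. Tm7sf2, a sterol reductase, was 6.80, 7.19, 6.33, 6.42 and 7.14 in rosiglitazone livers, against 4.89, 6.02, 5.82, 6.03 and 6.45 in lean livers. Rosiglitazone arrays 3 and 4 lay below the highest lean array, and the difference of 0.93 ± 0.25, adjusted p = 0.0492 stood at the threshold. Tm7sf2 was not called without lean control array 3 (0.92, adjusted p = 0.0565).

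These 4 enzymes were the called members among 13 tested genes of cholesterol synthesis, and all 4 were higher, beside 1.01% of all genes tested that were called higher. Of the 4, Hsd17b7 and Ebp kept the call with the clock score as a covariate, and Hsd17b7 alone kept it with rosiglitazone and lean arrays alone in the fit. A positive difference was measured in 12 of the 13, beside 4838 of all 9481 genes tested. The list median was 0.56 for rosiglitazone minus lean, −0.41 for obese minus lean and 0.79 for rosiglitazone minus obese. Srebf2, the gene of the main activator of this pathway, was higher with a difference of 0.72 ± 0.16, adjusted p = 0.0155. Its arrays read 5.90, 6.52, 5.30, 6.06 and 5.85 in rosiglitazone livers, against 5.30, 5.19, 5.10, 4.96 and 5.47 in lean livers, with rosiglitazone array 3 inside the lean range. Tmem97, a sterol-regulated membrane protein, was higher with a difference of 1.10 ± 0.15, adjusted p = 0.000425 and no overlap, and obese livers lay between the groups at 5.89 ± 0.23 (SD, n = 5). Insig1, the sterol-induced brake on SREBP, was not called (−0.86 ± 0.28, adjusted p = 0.120).

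The promoters of the 4 called enzymes are printed because they carry the members that moved together, as the 250 bases before each RefSeq gene start (assembly GRCr8), with CCAAT boxes on either strand (CCAAT or ATTGG) in capitals.
Hsd17b7 promoter (chr13:84722755-84723004, minus strand): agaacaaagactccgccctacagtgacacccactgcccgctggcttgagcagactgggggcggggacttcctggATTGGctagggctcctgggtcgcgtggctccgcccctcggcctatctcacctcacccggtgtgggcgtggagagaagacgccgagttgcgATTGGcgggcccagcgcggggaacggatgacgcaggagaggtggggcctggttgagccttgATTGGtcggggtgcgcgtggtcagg
Ebp promoter (chrX:16971212-16971461, plus strand): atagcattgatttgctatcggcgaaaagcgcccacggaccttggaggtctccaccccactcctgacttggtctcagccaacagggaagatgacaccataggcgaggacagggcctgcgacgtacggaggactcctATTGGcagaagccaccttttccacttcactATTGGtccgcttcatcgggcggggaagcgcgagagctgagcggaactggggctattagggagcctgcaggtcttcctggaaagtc
Sc5d promoter (chr8:51538278-51538527, minus strand): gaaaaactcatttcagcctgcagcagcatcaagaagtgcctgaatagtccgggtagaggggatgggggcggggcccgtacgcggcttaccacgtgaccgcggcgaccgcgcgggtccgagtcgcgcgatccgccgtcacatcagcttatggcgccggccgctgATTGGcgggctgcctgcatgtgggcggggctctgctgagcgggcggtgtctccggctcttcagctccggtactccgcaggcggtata
Tm7sf2 promoter (chr1:212789542-212789791, minus strand): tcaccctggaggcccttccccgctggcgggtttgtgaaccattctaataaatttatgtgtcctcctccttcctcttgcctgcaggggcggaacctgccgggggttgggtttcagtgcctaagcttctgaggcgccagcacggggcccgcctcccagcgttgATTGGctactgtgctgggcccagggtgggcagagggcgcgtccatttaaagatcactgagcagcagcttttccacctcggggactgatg
The sterol regulatory element, searched as TCACNCCAC on both strands, was in 0 of these 4 windows and in 0.974% of the 33469 windows of the same length in the table. The CCAAT box, which binds the factor NF-Y and was searched for after the values were known, was in all 4 and in 34.0% of all windows. It was also in 9 of all 10 cholesterol synthesis genes with a window, called or not. A copy began 86, 85, 87 and 89 bases before the gene start in Hsd17b7, Ebp, Sc5d and Tm7sf2. These letter matches are descriptions and not sites.

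Outside the sterol pathway, Igfbp2, an IGF-binding protein made by liver, was 5.44, 6.47, 5.04, 6.42 and 4.11 in rosiglitazone livers, against 3.21, 4.09, 2.43, 3.69 and 4.15 in lean livers. Rosiglitazone array 5 lay inside the lean range and the other 4 lay above it, with a difference of 1.98 ± 0.40, adjusted p = 0.00737, the highest of any gene beyond lean, while obese livers averaged 2.60 ± 0.70 (SD, n = 5). Obese values of Igfbp2 ran from 2.03 to 3.68, in part under the array medians of 2.36 to 2.53. Igfbp2 was not called without lean control arrays 1 and 3 (adjusted p = 0.0633). Echdc1, a decarboxylase that clears a by-product of fatty acid synthesis, was 4.59, 5.26, 4.70, 4.88 and 5.04 in rosiglitazone livers, against 3.97, 4.18, 3.57, 3.97 and 3.45 in lean livers. No array of one group reached the other, and the difference was 1.07 ± 0.15, adjusted p = 0.000574. Slc13a5, the citrate transporter, had a difference of 0.90 ± 0.16, adjusted p = 0.00248, Cyp1a1, the aryl hydrocarbon receptor target, of 1.04 ± 0.22, adjusted p = 0.0116, Ugt2b1, a glucuronosyltransferase, of 0.73 ± 0.15, adjusted p = 0.0104 and Hmox1, the heme oxygenase, of 0.87 ± 0.21, adjusted p = 0.0281. None of the 4 had overlapping groups. Cyp1a1 read 1.61 to 2.25 in lean and 1.63 to 2.30 in obese livers, below the array medians of 2.36 to 2.53. It passed the filter on low values through rosiglitazone and resveratrol arrays alone, so its lean level was not measured well. Slc13a5 read 2.07 to 2.75 in lean livers, near the same medians. Hmox1 lost the call in 6 of the 15 fits with 1 array left out and with the clock covariate.

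A pair of macrophage genes also lay above lean. Cd5l, a protein secreted by liver macrophages, was 6.22, 5.93, 6.15, 5.76 and 6.42 in rosiglitazone livers, against 5.28, 5.59, 5.62, 5.32 and 4.92 in lean livers. The groups did not overlap, the difference was 0.76 ± 0.18, adjusted p = 0.0216, and Cd5l was the 1 gene of the 20 whose obese difference was called on the other side of lean, −0.79 (adjusted p = 0.0244). Marco, a macrophage scavenger receptor, was 7.43, 6.39, 6.61, 6.85 and 7.33 in rosiglitazone livers, against 5.27, 5.66, 6.79, 4.73 and 5.10 in lean livers. Lean control array 3 lay above rosiglitazone arrays 2 and 3, and the difference was 1.41 ± 0.32, adjusted p = 0.0167. Cd5l and Marco lost the call in 6 and 3 of the 15 fits with 1 array left out. The other 3 higher genes in the class beyond lean were Disp1 (0.68), Mmp23 (0.58) and Rpl7a (0.36).

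The other 5 genes beyond lean lay below both lean and obese livers. Dhrs7l1, named as a short-chain dehydrogenase, was 3.71, 4.99, 6.87, 4.80 and 3.55 in rosiglitazone livers, against 7.81, 7.33, 8.14, 7.93 and 7.97 in lean livers. All rosiglitazone arrays lay below the lean arrays, but array 3 stood far above the other 4, and the difference was −3.05 ± 0.45, adjusted p = 0.000695. Nr0b2, the bile acid-induced repressor SHP, was 4.67, 3.83, 4.23, 5.07 and 4.20 in rosiglitazone livers, against 6.00, 5.75, 6.12, 6.37 and 6.17 in lean livers. No rosiglitazone array reached the lowest lean array, and the difference was −1.68 ± 0.36, adjusted p = 0.0109. Bdh1, of ketone body metabolism, had a difference of −0.62 ± 0.12, adjusted p = 0.00629, Akr7a3, an aldehyde reductase, of −0.84 ± 0.21, adjusted p = 0.0374, and Baat, which conjugates bile acids, of −0.44 ± 0.12, adjusted p = 0.0495. Akr7a3 was not called without lean control array 3 (−0.74, adjusted p = 0.0634), and Akr7a3 and Baat lost the call in 6 and 12 of the 15 fits with 1 array left out. Without lean control array 3 the class held 15 genes, 14 of them among the 20, and it held 11 genes without rosiglitazone array 1 and 13 without lean control array 4.

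**Figure D2:**
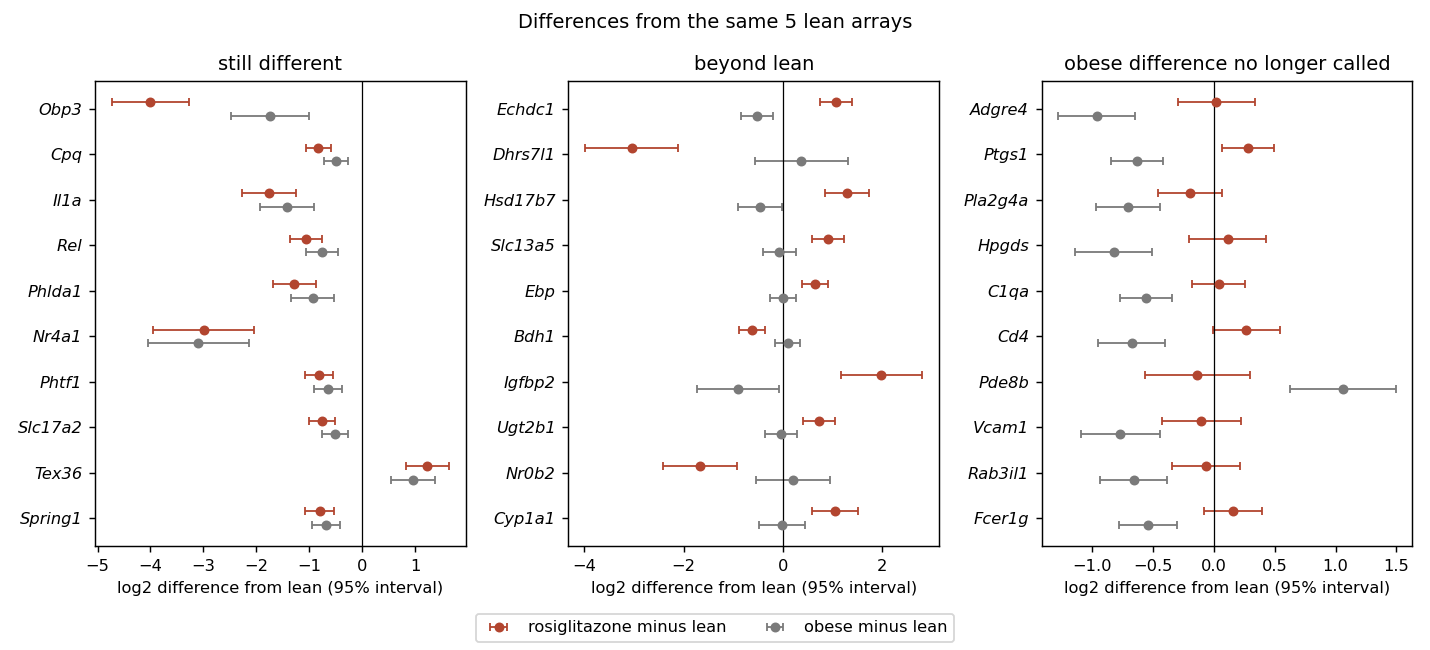
Log2 differences from lean (horizontal axes, each panel with its own range) with 95% intervals, rosiglitazone minus lean above obese minus lean for each gene. The panels hold the 10 still different genes, the 10 genes beyond lean and the 10 genes whose obese difference was no longer called that had the smallest p, and all intervals share the same 5 lean arrays.

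Of the 172 genes called between obese and lean livers, 117 were not called between rosiglitazone and lean. For 24 of these the rosiglitazone minus obese difference was called toward lean, 22 of them lower and 2 higher in obese than in lean livers. Several of the 10 named by smallest p are macrophage or lipid mediator genes. Ptgs1, cyclooxygenase 1, was 5.08, 4.94, 4.93, 5.24 and 5.32 in rosiglitazone livers and 4.32, 4.22, 3.91, 4.25 and 4.24 in obese livers, against 4.85, 4.81, 4.81, 4.83 and 4.79 in lean livers. Every obese array lay below every other array shown, every rosiglitazone array lay above every lean array, and rosiglitazone minus lean was 0.28 (95% interval 0.069 to 0.50, adjusted p = 0.167). C1qa, a complement subunit made by macrophages, averaged 6.24 ± 0.064 in rosiglitazone and 5.64 ± 0.13 in obese livers, against 6.20 ± 0.11 in lean livers (SD, n = 5 each). Its rosiglitazone minus lean interval was −0.18 to 0.26. Cd4, which rat macrophages also carry, averaged 6.54 ± 0.20 in rosiglitazone and 5.60 ± 0.16 in obese livers, against 6.27 ± 0.26 in lean livers. The interval of its rosiglitazone minus lean difference was −0.0075 to 0.54.

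The remaining named genes of this class had intervals of −0.30 to 0.34 for Adgre4, a macrophage adhesion receptor, −0.20 to 0.43 for the prostaglandin D synthase Hpgds, −0.46 to 0.066 for the phospholipase Pla2g4a, −0.43 to 0.22 for the adhesion molecule Vcam1, −0.084 to 0.40 for the Fc receptor chain Fcer1g and −0.34 to 0.21 for Rab3il1. Pde8b, a cAMP phosphodiesterase, was the named gene that was higher in obese livers, and its interval with rosiglitazone was −0.57 to 0.30. An absent call does not show that levels were equal, and over the 24 genes the 95% interval reached a median of 0.30 to either side of the difference. Without lean control array 3, 313 genes were called in obese and not in rosiglitazone livers, and without any other array the count was 33 to 142.

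The list of Kupffer cell and macrophage markers, which holds C1qa and Fcer1g, was set beside these genes. Of 19 tested, 2 were higher in rosiglitazone than in lean livers (Cd5l and Marco) and 0 were lower, beside 1.01% and 1.40% of all genes tested. A positive difference was measured in 18, beside 4838 of all 9481 genes tested, with a median of 0.16, beside 0.0055. Between rosiglitazone and obese livers 12 of the 19 were higher and 0 lower, beside 99 and 43 of all 9481, with a median of 0.64, beside −0.0035. Between obese and lean livers 3 were lower and 0 higher, beside 107 and 65 of all 9481. The mean level of the list was 5.50 to 5.95 in rosiglitazone and 4.93 to 5.10 in obese livers, against 5.03 to 5.61 in lean livers. Endothelial markers, 12 tested, had a median difference of −0.30 with none called, and their mean level was 4.80 to 5.28 in rosiglitazone and 4.73 to 5.02 in obese livers, against 5.17 to 5.41 in lean livers. Of 10 stellate and mesenchymal markers, 1 was higher, Dcn, with a difference of 1.19 ± 0.24, adjusted p = 0.00843. In whole liver, fewer cells of a type and less RNA per cell cannot be told apart. Of the lymphocyte, neutrophil, red cell, adipocyte, bile duct and pancreatic markers 22 were tested, and none was called. The part of cell composition in the other results was not tested.

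Several of the genes with the largest differences belonged to none of these classes, since neither obese contrast was called. Stac3, an adaptor of muscle excitation-contraction coupling, was 2.55, 4.16, 3.26, 2.96 and 2.30 in rosiglitazone livers, against 7.90, 6.84, 5.24, 8.30 and 8.12 in lean livers. All rosiglitazone arrays lay below the lean arrays, lean control array 3 being the lowest lean array, and the difference was −4.24 ± 0.63, adjusted p = 0.000695. Nrep, named for neuronal regeneration, had a difference of −2.86 ± 0.40, adjusted p = 0.000479 with no overlap. Spink1, a trypsin inhibitor also made by liver in the acute phase, was 7.50, 7.55, 7.51, 7.71 and 7.11 in rosiglitazone livers, against 5.56, 5.55, 6.81, 5.78 and 4.85 in lean livers. The groups did not overlap, lean control array 3 being the closest to the rosiglitazone arrays, and the difference was 1.77 ± 0.27, adjusted p = 0.000880. Higher too were the syntrophin Sntb1 (1.45 ± 0.25, adjusted p = 0.00210), the desmoglein Dsg1 (1.44 ± 0.25, adjusted p = 0.00254) and the interleukin 25 receptor chain Il17rb (1.62 ± 0.41, adjusted p = 0.0374). Nek6, a mitotic kinase, had a difference of 1.20 ± 0.30, adjusted p = 0.0377 and Spsb4, an adaptor of ubiquitin ligases, of 1.12 ± 0.29, adjusted p = 0.0424. Il17rb, Nek6 and Spsb4 lost the call in 6, 5 and 10 of the 15 fits with 1 array left out. Il36b, a cytokine of the interleukin 1 family and also in the still different class, was higher with a difference of 1.16 ± 0.23, adjusted p = 0.00737. Lean values ran from 2.37 to 3.07 for Dsg1 and from 2.30 to 3.21 for Il36b. Both reached down to the array medians of 2.36 to 2.53.

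Among 19 tested PPARgamma targets, 2 were higher, 0 were lower, and the median was 0.20, beside 1.01% of all genes tested that were higher, 1.40% that were lower and a median of 0.0055. Fabp4, the adipocyte fatty acid-binding protein, was 3.54, 3.47, 3.79, 3.37 and 3.20 in rosiglitazone livers, against 2.18, 2.88, 2.60, 2.61 and 1.88 in lean livers. The groups did not overlap, the difference was 1.05 ± 0.20, adjusted p = 0.00514, and obese livers were near lean at 2.47 ± 0.20 (SD, n = 5). Lean and obese values of Fabp4 lay near the array medians of 2.36 to 2.53 that set the filter on low values. Cd36, the fatty acid translocase, was 7.80, 7.72, 8.64, 8.05 and 8.92 in rosiglitazone livers, against 5.98, 7.11, 7.98, 6.52 and 5.72 in lean livers. Lean control array 3 lay above rosiglitazone arrays 1 and 2 and the other 4 lean arrays lay below all rosiglitazone arrays, with a difference of 1.57 ± 0.31, adjusted p = 0.00674. Rosiglitazone minus obese was 0.0024 for Cd36 and 1.0 for Fabp4 (adjusted p = 0.999 and 0.0108). Plin2, a lipid droplet coat protein, was 8.15, 6.34, 8.62, 8.38 and 8.89 in rosiglitazone livers, against 5.03, 7.79, 8.57, 5.20 and 4.75 in lean livers. The spread within the lean group, where arrays 2 and 3 were high, covered 3 of the 5 rosiglitazone values, and the difference was not called (1.81 ± 0.65, adjusted p = 0.155). Cidec (0.43 ± 0.15, adjusted p = 0.137), Angptl4 (1.25 ± 0.49, adjusted p = 0.205) and Pdk4 (1.04 ± 0.63, adjusted p = 0.459) were not called either. Without lean control array 3 the differences were 2.38, adjusted p = 0.0240 for Plin2, 0.55, adjusted p = 0.0312 for Cidec and 1.78, adjusted p = 0.0148 for Angptl4, all then past the threshold, and 1.51, adjusted p = 0.189 for Pdk4.

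Of 19 tested genes of lipid uptake and droplets, 4 were higher (Cd36, Fabp4, Slc27a5 and G0s2) and 0 lower, with a median of 0.31, beside 1.01% and 1.40% of all genes tested. G0s2, an inhibitor of lipolysis, had a difference of 1.66 ± 0.42, adjusted p = 0.0374 and Slc27a5, a fatty acid and bile acid ligase, of 0.65 ± 0.14, adjusted p = 0.0149. G0s2 lost the call in 7 of the 15 fits with 1 array left out, and both lost it with the clock covariate. Of 18 genes of fatty acid and triglyceride synthesis, 2 were higher and 0 lower, with a median of 0.38, beside the same shares of all genes tested. Acly, which makes cytosolic acetyl-CoA from citrate, was 8.33, 8.16, 7.86, 7.64 and 8.38 in rosiglitazone livers, against 6.50, 6.60, 7.75, 6.62 and 6.41 in lean livers. Lean control array 3 lay inside the rosiglitazone range and the other lean arrays far below it, with a difference of 1.30 ± 0.25, adjusted p = 0.00573. Dgat1, which completes triglyceride synthesis, had a difference of 0.51 ± 0.13, adjusted p = 0.0394 and lost the call in 6 of the 15 fits with 1 array left out. The elongase Elovl6 was not called (1.78 ± 0.48, adjusted p = 0.0511) with all lean arrays and was past the threshold without array 3 (2.38, adjusted p = 0.000301). Srebf1, the lipogenic regulator, was not called (0.56 ± 0.26, adjusted p = 0.303).

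Of 37 genes of fatty acid oxidation and PPARalpha targets, 35 had a positive difference, beside 4838 of all 9481 genes tested. The median was 0.34, beside 0.41 for obese minus lean. Of the 37, 1 was called, higher, beside 1.01% of all genes tested that were higher. It was the thioesterase Acot13 (0.71 ± 0.16, adjusted p = 0.0216), which lost the call in 4 of the 15 fits with 1 array left out. In oxidative phosphorylation 42 of 52 genes had a positive difference, with a median of 0.10 and none called. Of 14 genes of glucose and glycogen metabolism none was called, and Pck1, the gluconeogenic enzyme, had a difference of −0.15 (95% interval −0.35 to 0.044). Ppargc1a, the coactivator of fasting metabolism, was not called with all arrays (−0.92 ± 0.38, adjusted p = 0.226) and was past the threshold without lean control array 3 (−1.33, adjusted p = 0.0149). In insulin signalling, Igfbp2 was higher, and Irs2 and the transcription factor Foxo3 (−0.77 ± 0.16, adjusted p = 0.0116) were lower, of 23 tested. Over all genes tested 1.01% were higher and 1.40% lower.

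**Figure D3:**
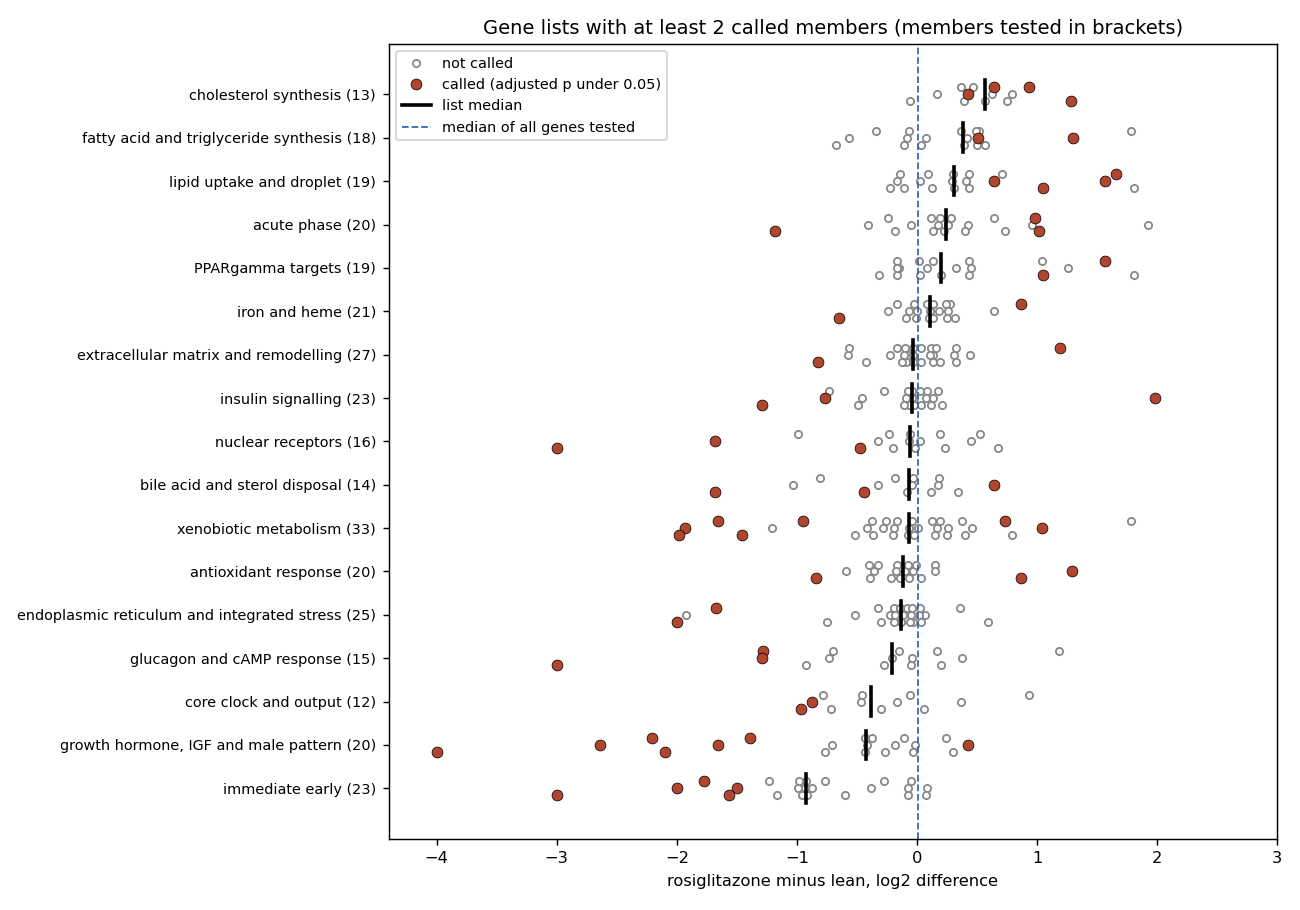
Rosiglitazone minus lean log2 differences (horizontal axis) of every tested member of the 17 pathway lists with at least 2 called members (cell type marker lists left out), with called genes filled, list medians as black bars and the median of all genes tested as a dashed line. Cholesterol synthesis stands at the top with a median of 0.56 and immediate early genes at the bottom with −0.92.

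Immediate early genes had the lowest median of all lists. Of 23 tested, 5 were lower and 0 higher, beside 1.40% and 1.01% of all genes tested. A positive difference was measured in 2, beside 4838 of all 9481 genes tested, and the median was −0.92, beside −0.45 for obese minus lean. Myc was 3.66, 3.35, 3.26, 3.98 and 3.81 in rosiglitazone livers, against 4.85, 5.44, 4.60, 5.05 and 5.95 in lean livers. All rosiglitazone arrays were under all lean arrays, with a difference of −1.57 ± 0.28, adjusted p = 0.00326. Klf6 had a difference of −1.5 ± 0.28, adjusted p = 0.00414, Atf3, of the stress response, of −2.00 ± 0.52, adjusted p = 0.0429, and Gadd45g of −1.77 ± 0.46, adjusted p = 0.0417, and Nr4a1 is described above. Atf3 and Gadd45g lost the call in 10 and 9 of the 15 fits with 1 array left out, and Atf3 also with the clock covariate. Of 15 genes of the glucagon and cAMP response 3 were lower (Nr4a1, Irs2 and Sik1), beside the same 1.40% of all genes tested, with a median of −0.21. Of 25 genes of endoplasmic reticulum and integrated stress 2 were lower, Atf3 and Ppp1r15a (−1.67 ± 0.31, adjusted p = 0.00392), beside 1.40% again, with a median of −0.13.

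Of 12 clock genes tested, 2 were lower, Per2 (−0.87 ± 0.20, adjusted p = 0.0205) and Per1 (−0.97 ± 0.24, adjusted p = 0.0341), and the list median was −0.38, beside 1.40% of all genes tested that were lower. Per1 and Per2 lost the call in 7 and 3 of the 15 fits with 1 array left out. Per2 was 5.22, 4.51, 4.21, 5.14 and 3.98 in rosiglitazone livers, against 5.54, 5.38, 5.41, 5.61 and 5.48 in lean livers. All rosiglitazone arrays lay below the lean arrays, which were within 0.23 of each other. Dbp, an output gene of the clock, was 8.33, 8.58, 5.74, 7.78 and 6.76 in rosiglitazone livers, against 8.95, 6.57, 7.72, 8.66 and 8.88 in lean livers, and the groups overlapped widely (−0.72 ± 0.63, adjusted p = 0.646). With the clock score as a covariate 165 genes were called in place of 229, of which 142 were among the original calls. Per2 and Dbp are members of that score, so their own values with the covariate are no separate check. Of the genes named here, Nek6, Sc5d, Tm7sf2, Dgat1, Acot13, Slc27a5, G0s2, Baat, Cyp2a1, Orm1, Atf3, Hmox1, Akr7a3 and Per1 lost the call with that covariate. The part of time of day and of tissue handling in the immediate early result was not tested.

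Among 33 xenobiotic genes, 2 were higher (Cyp1a1 and Ugt2b1) and 5 lower (Ces1f, Ces2h, Nat8f2, Cyp3a18 and Cyp2c22), with a median of −0.071, beside 1.01% and 1.40% of all genes tested. Cyp2c22 had a difference of −0.95 ± 0.17, adjusted p = 0.00377. Cyp2c, carboxylesterase and UDP-glucuronosyltransferase genes have close relatives, so probe sets of these families can share signal. In the antioxidant list of 20, Nqo1 and Hmox1 were higher and Akr7a3 lower, with a median of −0.12. The same shares of all genes tested stand beside this list and those that follow. The acute phase list of 20 had Orm1 (1.01 ± 0.26, adjusted p = 0.0392) and Stat3 higher, Orm1 losing the call in 7 of the 15 fits with 1 array left out, and Serpina3c (−1.18 ± 0.22, adjusted p = 0.00514) lower, with a median of 0.24. Of 14 bile acid genes, Slc27a5 was higher and Baat and Nr0b2 lower, while Cyp7a1, the first enzyme of bile acid synthesis, was not called (−0.81 ± 0.37, adjusted p = 0.288). In the matrix list of 27, Dcn was higher and Mmp2 lower (−0.82 ± 0.14, adjusted p = 0.00162). The antigen presentation list of 16 had 1 call, RT1-DMa (0.63 ± 0.15, adjusted p = 0.0308), and a median of 0.21. It had 13 positive differences, beside 4838 of all 9481 genes tested. RT1-DMa was not called without lean control array 3 (0.57, adjusted p = 0.0501).

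None of the genes tested was called in the lists of complement and coagulation (21 tested), heat shock (13), amino acid catabolism (34), interferon response (17) or cell cycle (23). List medians there lay between −0.30 for the interferon response and 0.07 for complement and coagulation. At an unadjusted p under 0.05, 1465 of the 9481 genes tested differed between rosiglitazone and lean livers.

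**Figure D4:**
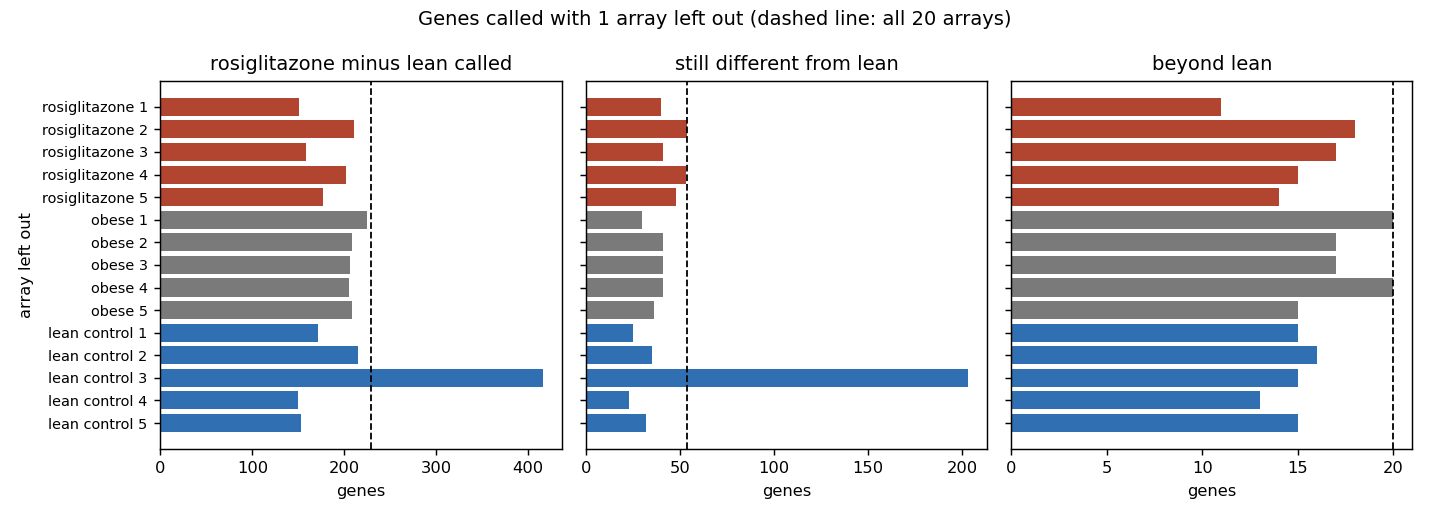
Number of genes (horizontal axes, each panel with its own range) called between rosiglitazone and lean livers, still different from lean and beyond lean when 1 array was left out, with the count from all 20 arrays as a dashed line. Without lean control array 3 the counts were 416, 203 and 15, and without any other array they were 150 to 225, 23 to 54 and 11 to 20.

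Across 31 alternatives, 79 called genes named here were followed, of which 42 were called under every alternative that tested them, and none changed sign. Another 22 lost the call when some single array was left out, Cyp2a1, Tm7sf2 and Baat most often, in 13, 12 and 12 of 15 such fits. The others not yet given with this loss were RT1-DMa in 5, Asah1 in 4, and Sc5d and Srebf2 in 1 each. Without lean control arrays 1 and 3 together, 16 of the 79 lost the call, among them Igfbp2, Ugt2b1, Lipc, Srebf2, Sc5d, Tm7sf2, Slc27a5 and Hmox1. With rosiglitazone and lean arrays alone in the fit, 24 of the 79 lost the call, among them Cd36, Socs2, Ebp, Bdh1, Foxo3, Nr3c1, Ces2h, Slc27a5, Srebf2, Marco, Per1 and Per2, so that 1 of the 4 called genes of lipid uptake and droplets, Fabp4, and 0 of the 2 called clock genes kept it.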

How the data were processed

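Liver RNA of 20 rats, 5 per group, was measured on Affymetrix Rat Gene 2.1 ST arrays, and groups came from the sample titles. The authors deposited log2 values made with RMA, which corrects background, normalizes between arrays by quantiles and summarises probes. No source used here states the RMA version. Array medians were 2.36 to 2.53 on that scale. RMA forces arrays to 1 distribution, so shifts of all genes together cannot be seen, and precision is limited by the 5 arrays in a group.

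Each gene with a single symbol was read from the probe set with the highest mean over 20 arrays, which gave 14557 genes. Genes above the array median in at least 5 arrays were tested with limma 3.58.1 in R 4.3.3, in 1 fit of the 4 groups with no covariate, and p-values were adjusted by Benjamini and Hochberg over the 9481 tested. A called gene had an adjusted p under 0.05. The median residual SD was 0.242. Errors beside differences are standard errors of the fit.

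Named genes were the 12 highest and 12 lowest called differences whose groups did not overlap, the 10 genes of each class with the smallest p, up to 4 members of each gene list with the smallest p, and a fixed set of lipid and glucose genes, some of which are not reported here. The members and lists were chosen with earlier results of these data known. Replicate numbers were in the titles, but same-numbered rosiglitazone and lean arrays did not deviate together, so the fit had no block. Alternatives were other filters, quantile normalization, median centring, a fit of both groups alone, trended variances, array or group weights, the replicate block, other probe set rules, stricter calls, a clock score as covariate, and leaving out arrays. Scripts were tested on simulated data. Figures used matplotlib 3.10.9.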

Additional observations from a re-analysis of the deposited data

Results flagged for a closer look

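In 13 of 300 groups of 5 arrays examined for the genes named, 1 array lay far from the other 4, with a gap to its nearest neighbour of more than 0.71 of the range of the group. Chance flags about 1 in 20 groups. Lean control array 3 was the highest lean array for Acly (a share of 0.844) and Elovl6 (0.807), and the lowest for Sc5d (0.752). Lean control array 5 was the highest for Rel (0.878) and the lowest for Hpgds (0.815), and lean control array 1 was the lowest for Ugt2b1 (0.774). Rosiglitazone array 2 was the lowest of its group for Pdk4 (0.750) and Cidec (0.741), array 5 for Cyp3a18 (0.769), and array 4 was the highest for Rel (0.775). In obese livers, array 1 was the lowest for Nat8f2 (0.775), array 3 the lowest for Ptgs1 (0.763) and array 5 the highest for Slc27a5 (0.771).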

How the results depend on the processing

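The count of 229 genes called between rosiglitazone and lean livers stayed within 1.5 times under other filters, normalizations, probe set rules, trended variances and the clock covariate. It was 110 (39 higher, 71 lower) with rosiglitazone and lean arrays alone in the fit, 150 (60 higher) with weights by group, and 93 (31 higher, 62 lower) at an adjusted p under 0.01. The split by direction depended on normalization. With quantile normalization repeated, 118 genes were higher and 119 lower, in place of 96 and 133. The 54 still different genes numbered 91 with a filter at the 75th percentile, 28 with both groups alone, 5 at the stricter p, 35 with the clock covariate and 134 without lean control arrays 1 and 3. The 20 genes beyond lean numbered 11, 7 and 10 with both groups alone, at the stricter p and without those lean arrays. The 117 obese calls absent with rosiglitazone numbered 196 at the 75th percentile, 192 with array weights, 6 at the stricter p and 183 without those lean arrays. With 1 array left out, called genes ranged from 150 to 416, higher from 58 to 203, lower from 88 to 213, still different from 23 to 203, beyond lean from 11 to 20 and absent obese calls from 33 to 313, and each maximum but that of 20 came from leaving out lean control array 3. The cause was not tested.

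With the replicate block 194 genes were called (81 higher, 113 lower), 45 still different and 19 beyond lean. Of the 194 genes, 179 were among the original calls. Same-numbered rosiglitazone and lean arrays had correlations of −0.25 to 0.08. These values cannot show whether arrays of the same number were handled together, which was not tested.

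No called gene named in the text changed sign. Of 21 uncalled genes, 7 did. With the clock covariate Adgre4 was −0.056 and Dbp 0.32, but Dbp is itself a member of the clock score. Without lean control arrays 1 and 3, C1qa was −0.016 and Pde8b 0.19. With 1 array left out, the lowest and highest values were −0.045 and 0.072 for Adgre4, −0.038 and 0.22 for Hpgds, −0.27 and 0.013 for Pde8b, −0.21 and 0.018 for Vcam1, and −0.12 and 0.012 for Rab3il1.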
